A study of Macaca mulatta with 24 samples.

Results

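The genes described here encode DARPP-32 and the proteins around it in the cyclic AMP (cAMP) pathway of striatal projection neurons. The list held 9 genes, PPP1R1B, ARPP21, ARPP19, ADCY5, GNAL, GNG7, PTPN5, RGS9 and RASD2, and a gene counted as measured where its symbol matched an entry of the deposited expression table. This gave 8 of the 9 genes among 17208 in all, and GNAL, the stimulatory G protein alpha subunit of the striatum, was not analysed here. All 8 had a mean of at least 10 TPM, a length-scaled share of all transcripts, and entered the tests over 9197 genes at or above that mean.

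In medium spiny neurons, dopamine at D1 receptors and adenosine at the receptor encoded by ADORA2A act through a G protein that contains the GNAL and GNG7 subunits and switches on adenylyl cyclase type V, the product of ADCY5. The cAMP formed activates protein kinase A, which phosphorylates DARPP-32 (PPP1R1B), turning it into an inhibitor of protein phosphatase 1, and also phosphorylates the products of ARPP21 and ARPP19. RGS9 and RASD2 dampen signalling at the receptor and G protein level, and PTPN5 encodes the striatal-enriched tyrosine phosphatase STEP, which acts on MAP kinases and on the kinase FYN.

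RNA was sequenced from the nucleus accumbens core of 24 adult, unrelated, male rhesus macaques that had long-term free access to ethanol or served as controls, to ask how chronic drinking relates to gene expression in this region. The 8 control animals received water and a maltose dextrin solution matched for calories. The 8 low drinkers, which include binge drinkers and are called LD*, took 1.58 ± 0.53 g/kg ethanol a day (mean ± SD), and the 8 HD* animals took 3.14 ± 0.33 g/kg. HD* combined 4 heavy drinkers (HD, 2.92 ± 0.16 g/kg) and 4 very heavy drinkers (VHD, 3.37 ± 0.29 g/kg).

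The animals came from 4 cohorts that were not spread evenly over the groups. Cohort 4 held 2 LD* animals only, cohort 5 held 3 controls and 4 HD*, cohort 7a held 2 controls, 3 LD* and 4 HD*, and cohort 7b held 3 controls and 3 LD*. Both cohorts with HD* animals contributed 2 HD and 2 VHD animals. A pair of the LD* animals was older than the rest. Values were TPM, a share of each animal's total, so the sequencing depth behind each animal is unknown and a gene's TPM also moves with the TPM of other genes.

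Control replicate 6, from cohort 7b, stood apart from the other animals. The summed TPM of the 8 measured genes was 844 in this animal and between 3496 and 11012 in the other controls. The summed TPM of 17 markers of striatal projection neurons was 657 there, against 1923 to 9352 in the other controls, while 12 oligodendrocyte markers summed to 10309.8 and 8 astrocyte markers to 12196, each the highest of the 24 animals. AVP (89.8 TPM against at most 30.6 elsewhere), OXT (43.2 against 2.85) and GAL (78.6 against 22.9) were also highest in it, genes chosen after their values were seen. The main tests of the 8 genes against controls are therefore given with and without this animal. Fits of the 3 groups with cohort as a covariate, and LD* against controls in cohorts 7a and 7b alone, are given only with it.

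As a check of the tissue, the 17 markers of striatal projection neurons were all measured, with means from 8.58 TPM for ISL1 to 2638 TPM for the enkephalin precursor PENK. SLC17A7, a marker of cortical excitatory neurons, had a mean of 79.9 TPM but reached 722 TPM in LD* replicate 4, a value singled out after it was seen. SLC17A6, another excitatory marker, had a mean of 1.14 TPM. Single markers near 0 did not stand for their lists: among microglial markers TMEM119 had 1.56 TPM and C1QB 134 TPM, and among interneuron markers PVALB had 3.06 TPM and SST 738 TPM.

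The 8 genes were among the more abundant transcripts of the tissue. PPP1R1B had a mean of 2497 TPM over the 24 animals and ranked 23 by mean among all 17208 genes, and ARPP21, whose product regulates calmodulin signalling, ranked 77 with 1571 TPM. GNG7 (813 TPM) and PTPN5 (778 TPM) came next, followed by RASD2 (486 TPM), ADCY5 (339 TPM), ARPP19 (328 TPM) and RGS9 (128 TPM). Setting levels of different genes side by side, and ranking them, relies on the values being scaled to transcript length, and the lengths behind them were not stated.

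The order of levels was the same in every animal for some neighbours and not for others. PPP1R1B exceeded ARPP21 in 24 of 24 animals, PTPN5 exceeded RASD2 in 24 of 24 and ARPP19 exceeded RGS9 in 24 of 24. ARPP21 exceeded GNG7 in 21 animals, RASD2 exceeded ADCY5 in 19 and ADCY5 exceeded ARPP19 in 17. GNG7 exceeded PTPN5 in 13 of 24, so the order of those neighbours was not separated by the spread between animals.

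Levels differed widely from animal to animal. The SD of log2(TPM + 1) over the 24 animals was 0.61 for ADCY5, the lowest of the 8 genes, and 1.10 for RASD2, the highest, against a median of 0.31 over all genes tested. When Control replicate 6 was left out the lowest SD was that of GNG7, 0.38, with ADCY5 at 0.49 and RASD2 still highest at 0.85. The highest animal exceeded the lowest 25.6-fold for ARPP21 and for RASD2, 12.9-fold for PPP1R1B and 6.18-fold for ADCY5. Without Control replicate 6, which was lowest for each of the 8 genes, the span was 6.83-fold for RASD2 and 4.84-fold for ARPP21. It was 3.73-fold for PPP1R1B, 2.85-fold for ADCY5 and 2.78-fold for GNG7.

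**Figure D1:**
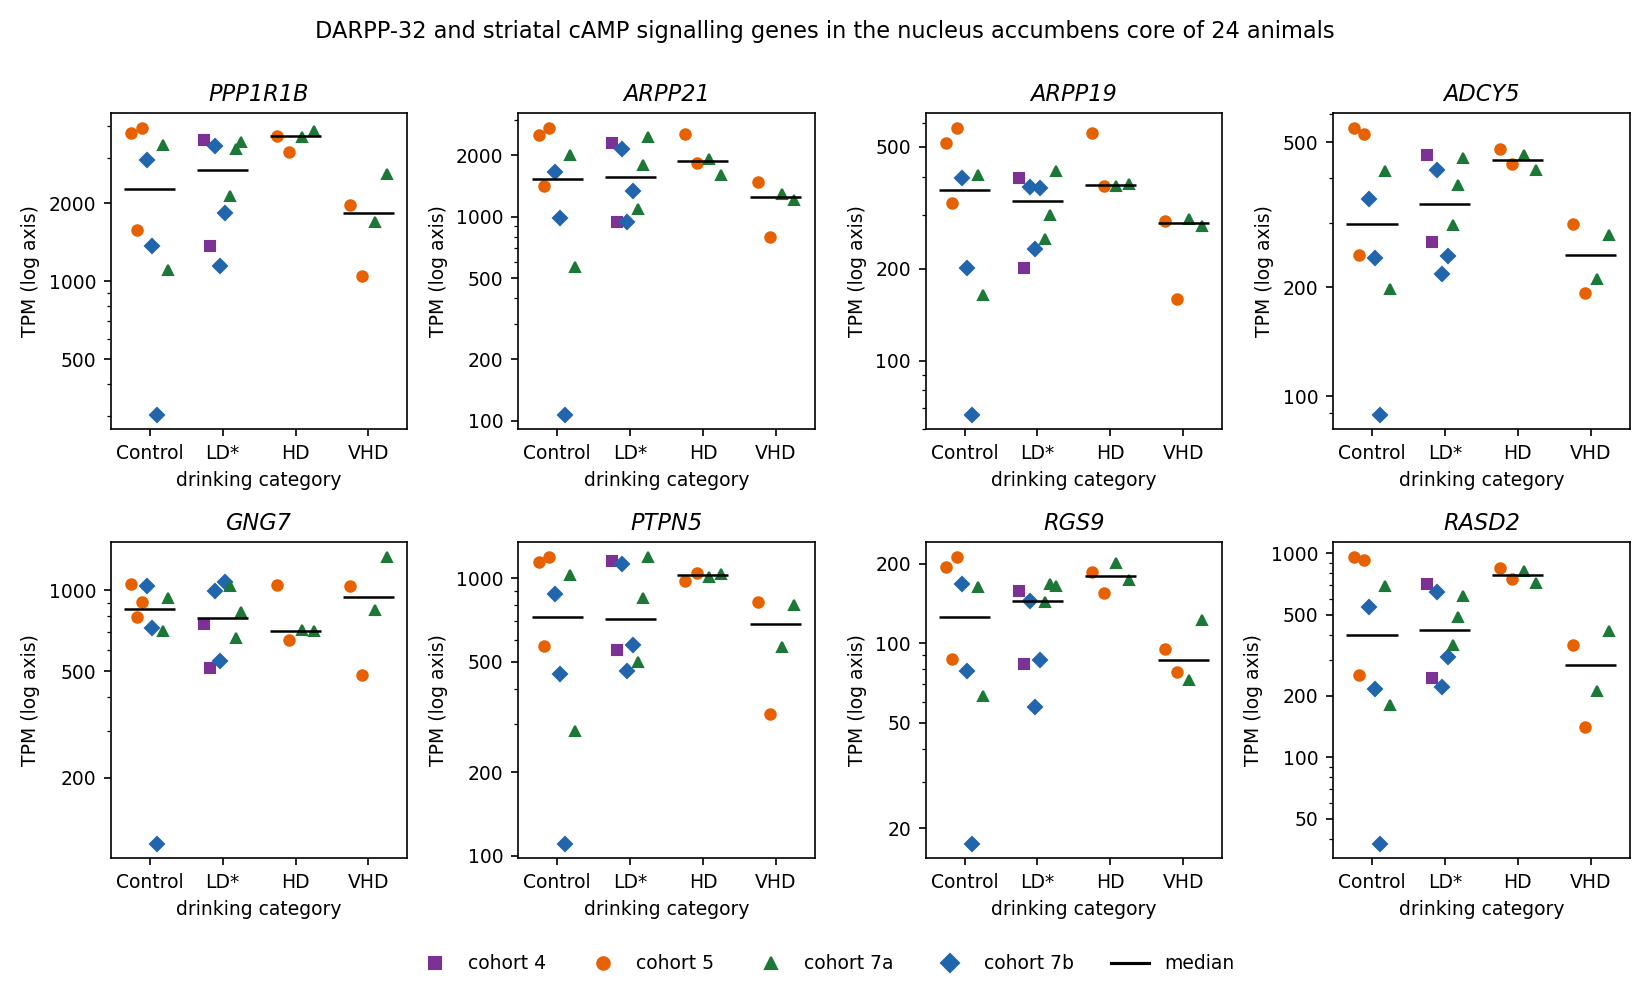
Level of each measured gene in TPM (log axis) in the nucleus accumbens core of each of the 24 animals, by drinking category; a point is an animal, its colour and shape the cohort, and the bar the median of the category. Control replicate 6 is the lowest point in every panel, and the 4 VHD animals lie below the 4 HD animals in every panel except that of GNG7.

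The first question was whether drinkers differed from controls. None of the 8 genes differed between HD* and controls or between LD* and controls beyond the spread between animals, and the groups overlapped for each gene. Among the genes of the G protein and the cyclase, GNG7 lay between 113 and 1061 TPM in controls (median 854), between 513 and 1074 in LD* (median 790.5) and between 482 and 1339 in HD* (median 779). ADCY5 lay between 88.8 and 549 TPM in controls (median 298), 217 and 461 in LD* (median 339) and 193 and 481 in HD* (median 359.5). Control replicate 6 was the lowest animal for both genes, and the other controls (GNG7 at 707 TPM or more) overlapped with both groups of drinkers.

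Of the genes that dampen the pathway, RGS9, a GTPase activating protein for inhibitory G protein alpha subunits, was at 17.4 to 213 TPM in controls (median 125), 57.6 to 167 in LD* (median 144) and 72.7 to 201 in HD* (median 139). RASD2, the striatal small G protein Rhes, was at 37.6 to 965 TPM in controls (median 399), 222 to 711 in LD* (median 421) and 141 to 846 in HD* (median 567.9). The 3 groups overlapped over most of their range, and the control animals were the most spread.

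PPP1R1B was at 304 to 3926 TPM in controls (median 2266), 1142 to 3507 in LD* (median 2694) and 1051 to 3797 in HD* (median 2871). ARPP21 was at 107 to 2736 TPM in controls (median 1540.1), 939.6 to 2462 in LD* (median 1571) and 796 to 2539 in HD* (median 1542). ARPP19, whose product inhibits protein phosphatase 2A when phosphorylated by the kinase MASTL, was at 66.4 to 578 TPM in controls (median 361), 200.2 to 416 in LD* (median 333) and 159.7 to 557 in HD* (median 331). Medians of the 3 protein kinase A substrates thus differed less between groups than the animals did within any group. PTPN5 was at 110.4 to 1199 TPM in controls (median 726), 465 to 1197 in LD* (median 713) and 324 to 1048 in HD* (median 899), again with overlap. Leaving Control replicate 6 out, the control medians were 2954 TPM for PPP1R1B, 1668 for ARPP21, 396 for ARPP19, 350.1 for ADCY5, 908 for GNG7, 881 for PTPN5, 164 for RGS9 and 543 for RASD2.

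Tested with limma on log2(TPM + 1), 0 of the 8 genes passed an adjusted p of 0.05 for HD* against controls, where 0.0% of all 9197 genes did and 357 had an unadjusted p under 0.05. The authors, with DESeq2, did report genes that differed in this comparison, both higher and lower in HD*. Why the methods differed was not tested. The log2 fold change of PPP1R1B was 0.47 (SE 0.42, adjusted p = 0.806), with ARPP21 at 0.47 (SE 0.46), PTPN5 at 0.46 (SE 0.39) and RASD2 at 0.46 (SE 0.52). RGS9 (0.36, SE 0.38), GNG7 (0.27, SE 0.33), ARPP19 (0.20, SE 0.33) and ADCY5 (0.20, SE 0.30) were smaller, and adjusted p over the 8 genes ran from 0.806 to 0.861. All 8 estimates were above 0 with a median of 0.41, where the median of all genes tested was −0.095. When the TPM values were rescaled by trimmed means (TMM), the median of all genes moved to 0.028 and the 8 estimates ran from 0.33 to 0.60.

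For LD* against controls, which share the control animals with the comparison above, 0 of the 8 genes and 0.0% of all genes passed in limma, and 164 genes had an unadjusted p under 0.05. The log2 fold changes were 0.37 for PPP1R1B, 0.48 for ARPP21, 0.15 for ARPP19, 0.21 for ADCY5, 0.19 for GNG7, 0.41 for PTPN5, 0.26 for RGS9 and 0.34 for RASD2, each with an adjusted p of 1.00. The SE of each gene was that given for HD*, since the 3 groups shared a spread. For HD* against LD*, again 0 of the 8 genes and 0.0% of all genes passed, and 67 had an unadjusted p under 0.05. The estimates lay between −0.014 for ARPP21 and 0.12 for RASD2, far inside their SEs. With cohort as a covariate all 8 were below 0, from −0.70 for ARPP21 (SE 0.55) to −0.34 for GNG7 (SE 0.42), with adjusted p of 0.625 to 0.749.

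The positive estimates against controls rested on Control replicate 6. Without it, the log2 fold changes of HD* against controls ran from −0.098 for GNG7 to 0.13 for PTPN5, 4 of 8 below 0, with PPP1R1B at 0.11 (SE 0.33). Those of LD* against controls ran from −0.17 for GNG7 to 0.076 for PTPN5, 6 of 8 below 0. With this animal and cohort as a covariate the LD* estimates were larger, 0.35 to 0.80 (adjusted p = 1.00), and in cohorts 7a and 7b alone they were 0.50 to 1.08 (adjusted p = 0.969). limma called 0 genes in either comparison without Control replicate 6, with 263 and 100 genes at an unadjusted p under 0.05. In cohorts 5 and 7a alone, which hold both HD* animals and controls but not this control, 6 of the 8 estimates for HD* were below 0, from −0.19 for ARPP19, and PPP1R1B was at 0.026 (SE 0.37). A test of whether the difference between HD* and controls varied between those cohorts called 0 of 9197 genes, and gave an adjusted p of 1.00 for each of the 8 genes. Its estimates were all above 0, from 0.35 for GNG7 to 0.98 for PTPN5, with PPP1R1B at 0.90 (SE 0.77). Cohort 7a held 2 controls, and the size of difference between cohorts that could be detected was not tested.

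**Figure D2:**
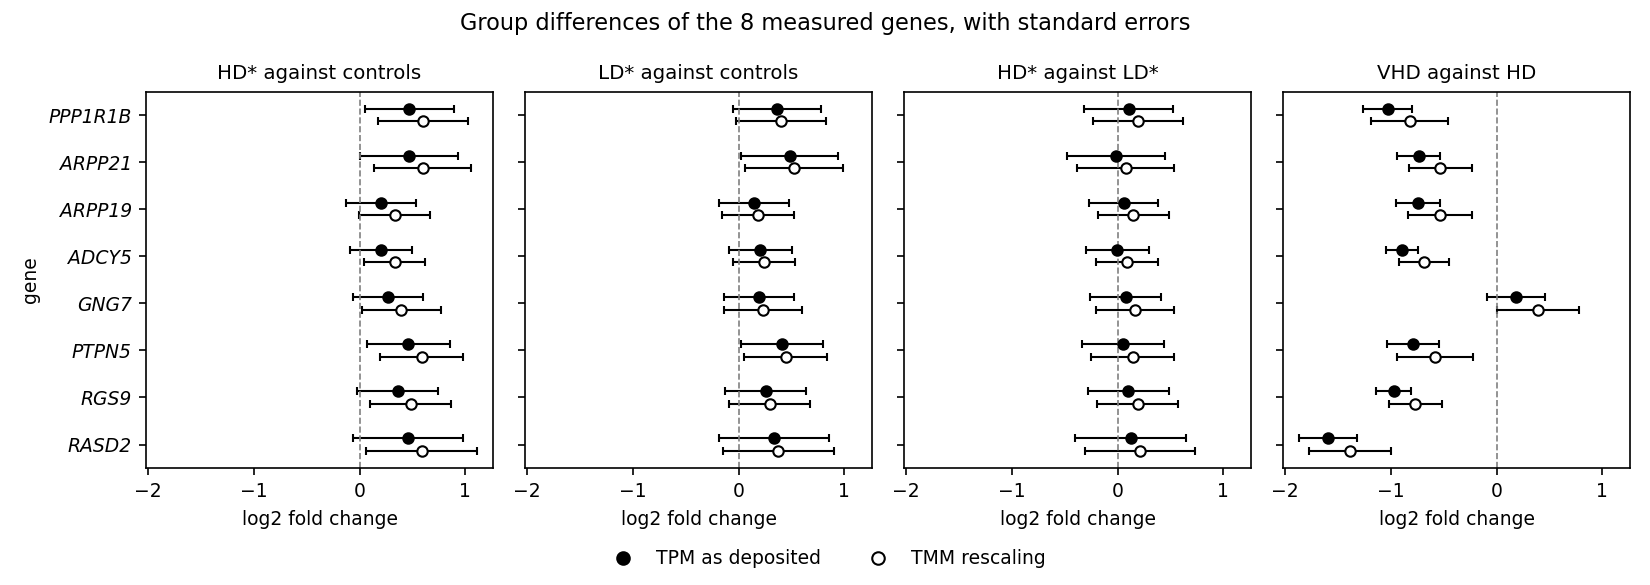
Log2 fold change of log2(TPM + 1) for each measured gene in 4 comparisons; points are limma estimates, bars their SE, filled points use TPM as deposited and open points TPM after TMM rescaling. Estimates against controls, all of which include Control replicate 6, lie above 0 with wide errors, and 7 of 8 genes lie below 0 for VHD against HD under both scalings while GNG7 lies above 0.

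Within the HD* group, VHD animals had lower levels than HD animals of all the measured genes except GNG7. The 4 HD animals, HD* replicates 2, 3, 5 and 7, had PPP1R1B at 3659, 3152, 3625 and 3797 TPM, and the 4 VHD animals, HD* replicates 1, 4, 6 and 8, had it at 1977, 1051, 1695 and 2589.6 TPM. Every VHD animal was below every HD animal, and HD* replicate 4 was lowest. ARPP21 was at 2539, 1826, 1931 and 1599 TPM in HD and at 1486, 796, 1293 and 1206 TPM in VHD, and ARPP19 at 557, 372, 372 and 377 TPM in HD and at 286, 159.7, 290.4 and 277 TPM in VHD. These substrates of protein kinase A did not overlap between the categories either, though the highest VHD animal for ARPP21 was close to the lowest HD animal.

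Of the G protein and cyclase genes, ADCY5 was at 481, 436, 462 and 421 TPM in HD and at 298, 193, 210.3 and 279 TPM in VHD, with no overlap. GNG7 was at 1049, 652, 712 and 703 TPM in HD and at 1040.0, 482, 847 and 1339 TPM in VHD. For GNG7 the categories overlapped, and a VHD animal was both the highest and the lowest of the 8.

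RGS9 was at 186, 155, 201 and 173 TPM in HD and at 95.4, 77.8, 72.7 and 122 TPM in VHD. RASD2 was at 846, 747, 816 and 719.6 TPM in HD and at 354, 141, 212 and 416 TPM in VHD. PTPN5 was at 979, 1048, 1008 and 1042 TPM in HD and at 819, 324, 565 and 804 TPM in VHD. For these 3 genes each VHD animal again lay below each HD animal, and for RASD2 the highest VHD animal was close to the control median.

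With limma, 7 of the 8 genes were lower in VHD at an adjusted p under 0.05, where 23.8% of all 9197 genes were called in either direction and 19.0% were called lower. The number of all genes called, 2186, moved to between 739 and 4094 when any animal was left out. All 4 VHD values were below all 4 HD values for 7 of the 8 genes and for 23.0% of all genes. RASD2 had the largest difference, with a log2 fold change of −1.59 (SE 0.28, adjusted p = 0.00507), or 3.02-fold. PPP1R1B differed by −1.03 (SE 0.23, adjusted p = 0.0113), RGS9 by −0.98 (SE 0.17, adjusted p = 0.00518) and ADCY5 by −0.90 (SE 0.15, adjusted p = 0.00492). PTPN5 (−0.79, adjusted p = 0.0395), ARPP19 (−0.74, adjusted p = 0.0260) and ARPP21 (−0.74, adjusted p = 0.0249) followed, and GNG7 was at 0.18 (SE 0.27, adjusted p = 0.638). In bulk tissue, fewer cells of a type and less RNA of a gene per cell cannot be told apart.

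Many other genes moved between the same animals. Of 2186 genes called, 440 were higher and 1746 lower in VHD (79.9% lower, with 4.78% of the genes tested higher), and log2 fold changes had a median of −0.23 over all genes and −0.84 over the 8 genes. TMM rescaling moved these medians to −0.034 and −0.64 and called 967 genes higher (10.5% of the genes tested) and 1431 lower (15.6%), 59.7% of the calls lower. Under it 2 of the 8 genes were called, RASD2 (−1.39, adjusted p = 0.0286) and RGS9 (−0.77, adjusted p = 0.0456), while ADCY5 (−0.69, adjusted p = 0.0533), PPP1R1B (−0.82, adjusted p = 0.112), PTPN5 (−0.58), ARPP19 (−0.54) and ARPP21 (−0.53) kept their sign and lost the call. GNG7 was at 0.39 with TMM rescaling (adjusted p = 0.468 in limma). The median TPM of the tested genes was 38.1 to 38.6 in the 4 HD animals, and 34.2, 38.8, 29.7 and 25.7 in the VHD replicates 1, 4, 6 and 8. The 10 most abundant genes held 3.79 to 3.96% of TPM in HD and 4.25, 4.16, 5.42 and 5.92% in these VHD animals. The part of these shifts in the result was not tested.

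On TPM as deposited, the calls of PPP1R1B, ADCY5, RGS9 and RASD2 were kept when any of the 8 animals was left out. Animals were not left out under TMM rescaling, where PPP1R1B and ADCY5 lost the call with all 8 animals. ARPP21 lost its call without HD* replicate 2, 3, 5 or 6 (adjusted p = 0.0718, 0.0581, 0.0682 and 0.0628). ARPP19 lost it without replicate 2, 3, 5, 6 or 7 (adjusted p = 0.0729, 0.0531, 0.0559, 0.0546 and 0.0531), as did PTPN5 (adjusted p = 0.0751, 0.0904, 0.0898, 0.111 and 0.0875). The estimate for GNG7 was −0.025 without replicate 8 and 0.47 without replicate 4. With all genes that had any value tested, 3 of the 8 genes passed, and PPP1R1B had an adjusted p of 0.0539. Fewer genes in all passed in that fit than in the main one, and their number is given under the dependence on processing.

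The difference in PPP1R1B was present in both cohorts that held these animals. Mean PPP1R1B was 3405 TPM in HD and 1514 TPM in VHD of cohort 5, and 3711 TPM in HD and 2142 TPM in VHD of cohort 7a, with 2 animals behind each mean. A test of the change of this difference between cohorts gave a log2 value of 0.41 for PPP1R1B (SE 0.42, adjusted p = 0.545) and called 0 of 9197 genes by limma. It gave 0.69 for ARPP19 (SE 0.39, adjusted p = 0.311) and 0.81 for GNG7 (SE 0.54, adjusted p = 0.363), whose mean was 850 TPM in HD and 761 TPM in VHD of cohort 5 and 708 TPM in HD and 1093 TPM in VHD of cohort 7a.

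Controls and LD* animals overlapped with both categories for PPP1R1B. For PPP1R1B, 1 of the 8 controls lay below the lowest VHD animal, 3 lay within the VHD range, 3 were at or above the lowest HD animal and 1 of those exceeded the highest, and of the 8 LD* animals 4 lay within the VHD range and 4 at or above the lowest HD animal. For RASD2, 2 controls and 0 LD* animals reached the lowest HD animal, and 3 controls and 4 LD* animals lay within the VHD range. The control below the lowest VHD animal was Control replicate 6.

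Ratios between genes within an animal do not depend on the scaling of its TPM. RASD2 was 0.190 to 0.237 of PPP1R1B in HD and 0.125 to 0.179 in VHD, with no overlap, and 0.124 to 0.257 in controls. GNG7 was 0.185 to 0.287 of PPP1R1B in HD and 0.459 to 0.526 in VHD, also with no overlap, and 0.211 to 0.843 in controls. The other 5 ratios overlapped between HD and VHD: 0.421 to 0.694 and 0.466 to 0.763 for ARPP21, 0.0993 to 0.152 and 0.107 to 0.171 for ARPP19, 0.111 to 0.138 and 0.108 to 0.183 for ADCY5, 0.267 to 0.332 and 0.308 to 0.414 for PTPN5, and 0.0456 to 0.0556 and 0.0429 to 0.0740 for RGS9. Over all other genes tested, this ratio was lower in all 4 VHD than in all 4 HD animals for 0.0652% of 9196 genes (6 genes, RASD2 among them) and higher for 30.7%, so the separation of GNG7 was shared by many genes. Both shares depend on PPP1R1B itself, which was lower in VHD (log2 fold change −1.03, against a median of −0.23 over all genes). These ratios were not tested.

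A list of 79 other genes of the pathway was examined in the same comparison, 67 of them at a mean of at least 10 TPM, 11 between 1 and 10 TPM and RGS9BP below 1 TPM. In VHD against HD, 35 of the 67 were lower (19.0% of all genes were) and 0 higher in limma, and 47 of them were lower at an unadjusted p under 0.05, which 39.7% of all genes reached in either direction. Their median log2 fold change was −0.64, where that of all genes was −0.23, and with TMM rescaling 33 were lower (15.6% of all genes were) and 0 higher. The same shares of all genes, 19.0% and 15.6% with TMM, stand beside each count of listed genes called lower below.

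All 6 receptors at or above 10 TPM were lower in VHD, and 5 with TMM rescaling. The D1 receptor gene DRD1 differed by −1.20 (SE 0.19, adjusted p = 0.00374), the D2 receptor gene DRD2 by −1.19 (SE 0.27, adjusted p = 0.0126) and DRD3 by −0.85. ADORA2A, the adenosine receptor gene and the most abundant of the class at a mean of 288 TPM, differed by −1.20 (SE 0.21, adjusted p = 0.00530), and the muscarinic receptor gene CHRM4 by −1.27. HD animals had DRD1 at 171 to 231 TPM and VHD animals at 65.2 to 125 TPM, so these did not overlap. Among the genes under 10 TPM, the opioid receptor gene OPRD1 was at −0.86 (adjusted p = 0.0255).

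Of 18 other G protein subunits and regulators, 8 were lower, with 7 under TMM. They were RGS4 (−1.70, SE 0.26), RGS7BP (−1.28), RGS8 (−1.09), GNAO1 (−0.89, SE 0.14), the alpha subunit chaperone RIC8B (−0.83), the RGS9 partner GNB5 (−0.71), RGS7 (−0.66) and GNB2 (−0.49). The most abundant of them, RGS14, had a mean of 914 TPM and a log2 fold change of −0.78 (adjusted p = 0.128). GNAS, which encodes the stimulatory alpha subunit of most tissues, was at 0.27 (SE 0.27, adjusted p = 0.467).

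Some of the enzymes that make and break down cAMP were also lower. ADCY3, the most abundant of the other cyclases at 73.9 TPM, differed by −0.89 (SE 0.16) and ADCY9 by −1.03 (SE 0.18), 2 of 5 tested. Of 5 phosphodiesterases 3 were lower, PDE1B, the most abundant at 475 TPM, by −1.41 (SE 0.19), PDE7B by −1.46 (SE 0.17) and PDE10A by −1.61 (SE 0.22), each at an adjusted p of 0.00268, while PDE2A was at −0.18 (SE 0.15). The same counts held with TMM rescaling.

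Downstream, 3 of 6 genes of protein kinase A were lower, the catalytic subunit gene PRKACA by −0.68 and the regulatory subunit genes PRKAR1A by −0.64 and PRKAR1B, the most abundant at 343 TPM, by −0.59. Of 15 phosphatase genes 7 were lower, 6 under TMM, among them the calcineurin genes PPP3CA (−1.32, SE 0.18), PPP3R1 (−1.01, SE 0.16) and PPP3CB (−0.74, SE 0.17) and the phosphatase 2A genes PPP2R5D (−0.76), PPP2R2A (−0.70), PPP2CA (−0.65) and PPP2R1A (−0.47), the last the most abundant at 667 TPM. The catalytic subunit gene PPP1CA of protein phosphatase 1, the target of DARPP-32, was at 0.078 (SE 0.12, adjusted p = 0.643) and PPP1CB at −0.55 (adjusted p = 0.0582).

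Of 12 kinases and substrates 6 were lower, 7 under TMM. Among these were the AMPA receptor gene GRIA1 (adjusted p = 0.0267), PTK2B (−0.87), CDK5R1, an activator of the kinase that phosphorylates DARPP-32 at another site (−0.77), MAPK14 (−0.72) and CSNK1D (−0.61). MAPK3, the most abundant at 404 TPM, was at 0.20 (adjusted p = 0.250), and GRIN2B, at a mean of 9.95 TPM, at −0.94 (adjusted p = 0.0235).

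Markers of striatal projection neurons moved with the members. Of 17 such markers, 4 of which are also in the pathway list, 16 were tested, and 14 were lower in VHD, with 10 under TMM (19.0% and 15.6% of all genes) and a median of −1.20. Their summed TPM was 7756, 7379, 8084 and 6807 in the 4 HD animals and 4833, 2735, 3819.7 and 4242 in the 4 VHD animals, without overlap. PENK, the most abundant, differed by −1.04 (SE 0.21, adjusted p = 0.00743), PDYN by −0.80 (SE 0.20), and TAC1 was at −0.061 (SE 0.17, adjusted p = 0.816). The part of these markers in the difference of the 8 genes was not tested.

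Markers of other cells were measured beside them. Of 9 general neuronal markers 3 were lower, SNAP25, the most abundant at 1302 TPM, SYT1 and ELAVL3 (2 lower and 1 higher under TMM), and their sums were 4085, 3838, 3710.1 and 4338 TPM in HD and 2899, 3916, 2158 and 1917 TPM in VHD, which overlapped. Of 5 interneuron markers tested NOS1 was lower (−0.66), and SST, the most abundant, had a mean of 738 TPM, with sums of 1420.1, 1525, 1534 and 1793 TPM in HD and 1482, 1329.8, 1586 and 691 TPM in VHD, which also overlapped. SLC17A7 was the only tested marker of cortical and other excitatory neurons and did not pass (−1.73, SE 1.27), and the sums of that list were 11.7, 118, 4.65 and 261 TPM in HD and 17.4, 10.2, 5.72 and 28.0 TPM in VHD.

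Glial and vascular markers completed the lists. Among all genes 4.78% were called higher in VHD, and 10.5% under TMM. The share of all genes with all 4 VHD values above all 4 HD values was not computed. Of 8 astrocyte markers GFAP, the most abundant, was higher in VHD (1.39, SE 0.30, adjusted p = 0.0101) and 4 were higher under TMM, and the sums were 5094, 4731, 3357 and 4806 TPM in HD and 6469, 9135, 6665 and 6101 TPM in VHD, without overlap. Of 7 microglial markers tested, AIF1 (1.11), C1QA (0.79), C1QC (0.66) and C1QB (0.64), the most abundant at 134 TPM, were higher, and the sums were 378, 429, 386 and 335 TPM in HD and 437, 676, 746 and 534 TPM in VHD, also without overlap. Of 12 oligodendrocyte markers MBP was higher (0.84), and the sums were 2969, 4205, 2606 and 4457 TPM in HD and 2535, 5389, 4157 and 2651 TPM in VHD. Of 3 endothelial markers tested ESAM was lower (−0.50, with 0 markers lower under TMM), CLDN5 was the most abundant at 56.7 TPM, the sums were 131, 126, 135 and 122 TPM in HD and 86.2, 82.2, 131 and 119 TPM in VHD, and PECAM1 was not analysed here. The part of these cell types in the difference of the 8 genes was not tested.

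In the other group comparisons 0 genes of the pathway list and 0 markers passed in limma. This differs from the DESeq2 test of the authors, who list some of these genes as lower in HD* than in controls. Among them are PPP3CB and RGS7BP of the pathway list and the markers SNAP25, SYT1 and NOS1. The reason for the difference was not tested. GNAI3, an inhibitory alpha subunit gene, had an unadjusted p of 0.0285 for HD* against controls (−0.32) and 0.0336 for LD* against controls (−0.31), and ADCY4, at a mean of 1.32 TPM, had 0.0123 for LD* against controls (−0.31). Without Control replicate 6, again 0 of the listed genes passed, GNAI3 had an unadjusted p of 0.0559 (−0.28) and 0.0649 (−0.27), and ADCY4 had 0.0146 for LD* against controls (−0.32). None of the pathway genes had an unadjusted p under 0.05 for HD* against LD*. Summed markers of striatal projection neurons lay between 657 and 9352 TPM in controls (median 5429), 2895 and 8307 in LD* (median 5124) and 2735 and 8084 in HD* (median 5820).

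Daily intake among the 16 drinkers was not related to the level of any of the 8 genes beyond the spread between animals. Intake ran from 0.47 to 2.07 g/kg in LD* and from 2.74 to 3.78 g/kg in HD*, and HD* replicates 3 (HD) and 6 (VHD) drank the same 3.09 g/kg while their PPP1R1B levels were 3152 and 1695 TPM. The slope of log2 level per g/kg was 0.016 for PPP1R1B (SE 0.17, adjusted p = 0.963), 0.12 for GNG7 (SE 0.11, adjusted p = 0.535) and −0.063 for ADCY5 (SE 0.12, adjusted p = 0.773). The other 5 genes lay between −0.033 and 0.016. With drinking group as a covariate 7 of the 8 slopes were negative, down to −0.37 for RASD2 (SE 0.45), and GNG7 was at 0.40 (SE 0.24), with adjusted p of 0.427 to 0.907; with cohort as a covariate they ran from −0.35 for RGS9 to 0.17 for GNG7. limma called 0.0% of all genes and 0 of the 8, and 631 genes had an unadjusted p under 0.05.

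Of the pathway list, 0 genes were called for intake and 7 of 67 had a negative slope at an unadjusted p under 0.05, which 6.86% of all genes reached in either direction. These were RASD1 (−0.34), GRIA1 (−0.33), PTK2B (−0.29), PRKAR1A (−0.23), PPP3CB (−0.23), CDK5R1 (−0.23) and CSNK2A1 (−0.22), each at an adjusted p of 0.457.

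Cohorts did not separate the 8 genes either. Mean PPP1R1B was 2439 TPM in cohort 4 (n = 2), 2727 in cohort 5 (n = 7), 2779.5 in cohort 7a (n = 9) and 1823 in cohort 7b (n = 6), with SDs of 948 to 1511 TPM. RGS9 had the highest F of the cohort terms, 2.02 (adjusted p = 0.541), and GNG7 the lowest, 0.99 (adjusted p = 0.672), in a fit that also held the drinking group. limma called 0 of the 8 genes and 0.0% of all genes, with 765 at an unadjusted p under 0.05. Without Control replicate 6 the F values lay between 0.22 and 0.76, and 463 genes had an unadjusted p under 0.05.

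Across the 24 animals the members rose and fell together, except for GNG7. For the 21 pairs without GNG7, Pearson's r on log2(TPM + 1) lay between 0.895 and 0.988 and Spearman's rho between 0.835 and 0.977, each with a permutation p of 1e-05, the smallest that 100000 permutations can give, and an adjusted p of 1.33e-05 over the 28 pairs. Without the 2 animals farthest from the median these r values were 0.795 to 0.978, and without Control replicate 6 they were 0.801 to 0.980. Within cohorts they were 0.879 to 0.998 in cohort 5, 0.775 to 0.974 in cohort 7a and 0.939 to 0.999 in cohort 7b, and cohort 4 held too few animals. ADCY5 with RASD2 had the highest r, 0.988, and PPP1R1B with RASD2 had 0.983. These are correlations of shares of a total measured in the same libraries.

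GNG7 was less closely tied to the others. Its 7 pairs had r from 0.616 to 0.761 with permutation p adjusted over the 28 pairs of 0.00160 to 0.00754, and rho from 0.257 to 0.371 with adjusted p of 0.0950 to 0.225. Without the 2 animals farthest from the median r was between 0.104 and 0.389, and without Control replicate 6 it was 0.205 to 0.410 and 0 of the 7 pairs passed, so the relation rests on those animals. Within cohorts r was 0.542 to 0.771 in cohort 5, −0.564 to −0.416 in cohort 7a and 0.933 to 0.981 in cohort 7b, the last of which contains Control replicate 6.

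**Figure D3:**
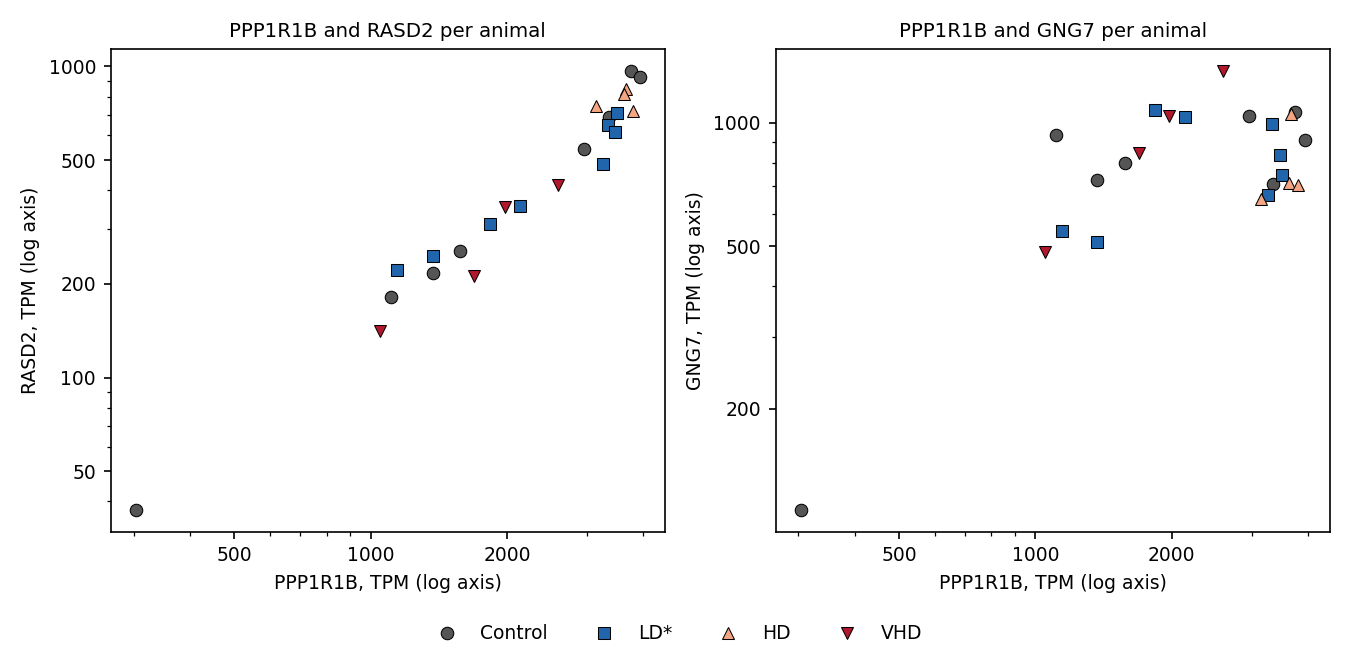
PPP1R1B against RASD2 and against GNG7 in each of the 24 animals, in TPM on log axes; a point is an animal and its colour and shape the drinking category. RASD2 follows PPP1R1B along a line, with r of 0.983, while GNG7 shows no such line when Control replicate 6, at the lower left, is set aside.

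Among 9196 other genes tested, the r with PPP1R1B over the 24 animals ranked RASD2 at 2, RGS9 at 3, PTPN5 at 7, ADCY5 at 10, ARPP21 at 41, ARPP19 at 68 and GNG7 at 664. The median r of all genes was 0.061, and 137 genes (1.49%) had r over 0.9. Genes outside the list that were most like PPP1R1B included the calcium sensor gene HPCA (r = 0.985, and 0.972 without Control replicate 6), NGEF (0.977), PDE1B (0.976) and ADORA2A (0.974). These ranks are descriptions over 24 animals with no test.

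For the mean of the members' centred log2 levels the most alike genes outside the list were HPCA (0.985), ADORA2A (0.983), LINGO3 (0.976), BSPRY (0.974) and NGEF (0.972). The single most alike gene outside the list was LAMP5 for ARPP21 (0.978), BSPRY for ARPP19 (0.967), PDE1B for ADCY5 (0.986), PROSAPIP1 for PTPN5 (0.977), ADORA2A for RGS9 (0.976) and NGEF for RASD2 (0.989). For GNG7 it was FBXL16 (0.966, and 0.886 without Control replicate 6), a gene not among those of the other members.

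The members other than GNG7 were also related to the summed markers of striatal projection neurons, astrocytes and microglia, in a family of 64 relations. For the excitatory neuron and interneuron sums, 0 of the 8 genes passed an adjusted permutation p of 0.05 by r or by rho. By r, 7 of the 8 genes passed for the oligodendrocyte sum, with r of −0.310 to −0.059 over the 8 without Control replicate 6. For the endothelial sum 0 of the 8 passed by r. By rho PPP1R1B, ARPP21, ARPP19, ADCY5, RGS9 and RASD2 passed for it (adjusted permutation p of 0.0172 to 0.0467). PPP1R1B rose with the sum of striatal projection neuron markers (r = 0.968, rho = 0.928, each with a permutation p of 1e-05, the smallest possible, and adjusted p of 4.57e-05 and 3.2e-05), with 0.933 without the 2 farthest animals and 0.991, 0.969 and 0.988 within cohorts 5, 7a and 7b. It fell with the sum of astrocyte markers (r = −0.887, rho = −0.865, the same permutation and adjusted p), with −0.846 without the 2 farthest animals and −0.976, −0.844 and −0.982 within the cohorts. It also fell with the microglial sum (r = −0.683, rho = −0.839, permutation p of 0.00016 and 1e-05, adjusted p of 0.000539 and 3.2e-05), with −0.761 without the 2 farthest animals and −0.937, −0.865 and −0.406 within the cohorts. Without Control replicate 6 the r of PPP1R1B was 0.939 with the striatal sum, −0.868 with the astrocyte sum and −0.785 with the microglial sum.

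Other sums were less closely related to PPP1R1B, and GNG7 differed from it. For the oligodendrocyte sum and PPP1R1B, r was −0.527 (permutation p = 0.0083, adjusted p = 0.0213) and rho −0.320 (permutation p = 0.127, adjusted p = 0.219), with r of −0.182 without the 2 farthest animals and −0.462, 0.083 and −0.895 within cohorts 5, 7a and 7b, so that relation rests on those animals. For the general neuronal sum r was 0.044 (permutation p = 0.837, adjusted p = 0.850) and rho 0.197 (permutation p = 0.356, adjusted p = 0.399), with 0.247 without the 2 farthest animals and 0.378, 0.693 and −0.400 within cohorts. For GNG7 and the striatal sum r was 0.652 (permutation p = 0.0107, adjusted p = 0.0253) and rho 0.223 (permutation p = 0.293, adjusted p = 0.353), with 0.015 without the 2 farthest animals and 0.651, −0.555 and 0.936 within cohorts, so it too rests on them. GNG7 and the general neuronal sum had r of −0.430 (permutation p = 0.0444, adjusted p = 0.0898) and rho of −0.523 (permutation p = 0.00939, adjusted p = 0.0240), with −0.617 without the 2 farthest animals, −0.084, −0.789 and −0.493 within cohorts and −0.600 without Control replicate 6. PPP1R1B and the endothelial sum had r of 0.376 (permutation p = 0.0696, adjusted p = 0.127) and rho of 0.539 (permutation p = 0.00703, adjusted p = 0.0187), with 0.478 without the 2 farthest animals, 0.919, 0.342 and −0.012 within cohorts and 0.542 without Control replicate 6. Without Control replicate 6 the r of PPP1R1B was −0.265 with the oligodendrocyte sum and 0.185 with the neuronal sum, and that of GNG7 with the striatal sum was 0.153.

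**Figure D4:**
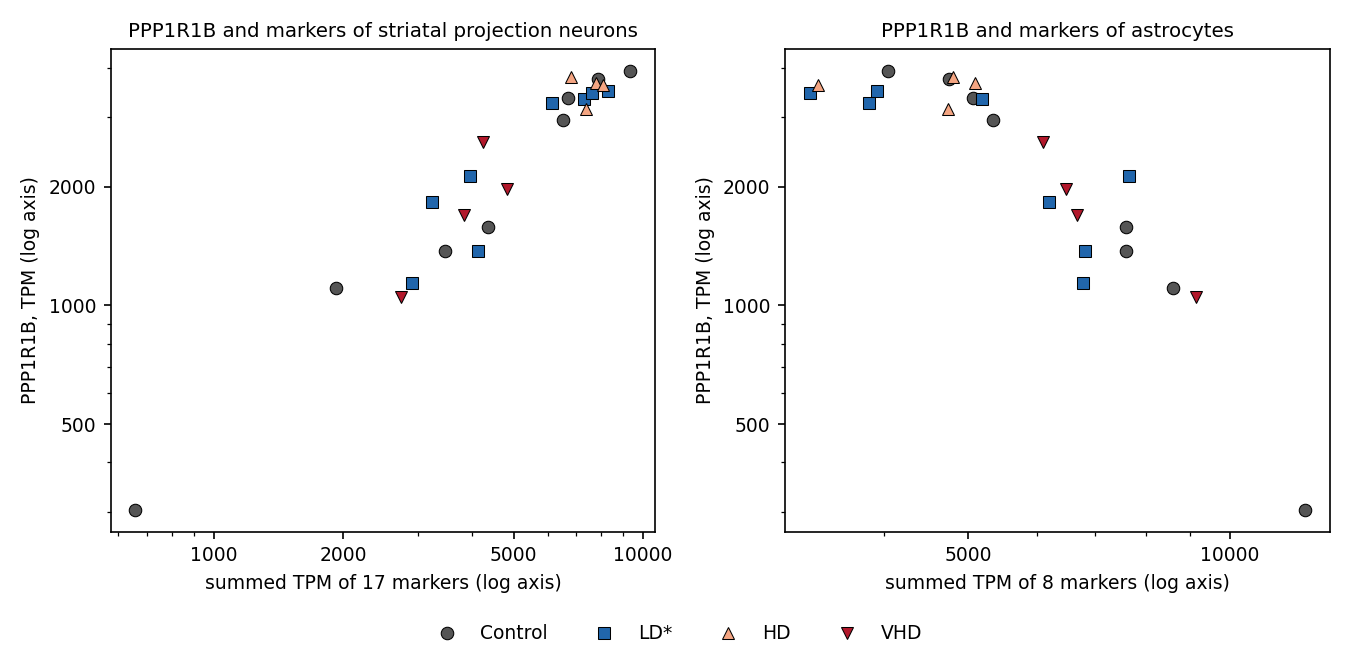
Summed TPM of 17 markers of striatal projection neurons (left) and of 8 astrocyte markers (right) against PPP1R1B in TPM, all on log axes; a point is an animal and its colour and shape the drinking category. PPP1R1B rises with the striatal sum (r = 0.968) and falls with the astrocyte sum (r = −0.887) over the 24 animals.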

How the data were processed

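The authors aligned reads from poly(A) libraries with STAR 2.5.2b to the MacaM assembly, counted genes with HTSeq 0.6.1p1 and tested with DESeq2. The deposited values are TPM, as the design had assumed: each animal's values summed to 1000000 within rounding, although they were called normalized counts. Descriptions of strand and read pairing differed. limma 3.58.1 (R 4.3.3, trended empirical Bayes) on log2(TPM + 1), which understates fold changes of low genes, was limited to genes averaging 10 TPM or more (1 TPM for lower genes), with Benjamini-Hochberg adjusted p. The 3 groups shared a fit; VHD against HD used the 8 HD* animals, intake the 16 drinkers, and the cohort test included group. The fits were tested on simulated data in which genes varied independently and no animal stood apart, unlike these data. Correlations used 100000 permutations (Python 3.11.15, numpy 2.4.6, scipy 1.17.1). TMM trimmed 30% of ratios and 5% of means. Members and lists were chosen with earlier results of these data known. Genes named were the members and, with some left out, those most like them, listed genes past the threshold (or unadjusted p under 0.05 where none passed), reference genes of the pathway, the most abundant of each list and markers near 0. Protein and promoter sequences were not analysed here.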

Additional observations from a re-analysis of the deposited data

Results flagged for a closer look

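In 95 groups of 4 to 8 animals, the distance of the most extreme animal from its neighbour was set against the whole range of the group, and chance passes about 1 in 20 such groups; 6 passed. ARPP19 in the HD animals was highest in HD* replicate 2, at 557 TPM against 377 TPM for the next animal, a gap of 0.966 of the range of log2 levels. ARPP19 in the VHD animals was lowest in HD* replicate 4, at 159.7 TPM against 277 TPM, a gap of 0.919 of the range. GNG7 in controls was lowest in Control replicate 6, at 113 TPM against 707 TPM, a gap of 0.818. The summed TPM of the 8 genes in controls was also lowest in Control replicate 6, at 844 against 3496, a gap of 0.553. The median TPM of the tested genes in controls was lowest in Control replicate 8, at 31.3 against 37.2, a gap of 0.658. The summed TPM of 8 interneuron markers in HD* was lowest in HD* replicate 8, at 691 against 1329.8, a gap of 0.687.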

How the results depend on the processing

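Of 456 fold changes and slopes of the 8 genes under alternative settings, 393 kept their direction and side of the threshold, 24 lost a call and 39 changed sign; of 112 pair correlations 105 were kept and 7, all with GNG7, lost the call without Control replicate 6. Every sign change was in an estimate that passed no threshold. All counts of 0 genes stayed at 0. For VHD against HD 1408 genes passed with no filter on low values, 3 of the 8 genes among them, where 17208 genes were tested. With each animal left out 739 to 4094 passed (739 without HD* replicate 6, 4094 without replicate 4). HD* against controls changed sign in cohorts 5 and 7a alone for ARPP21 (−0.10), ARPP19 (−0.19), ADCY5 (−0.12), GNG7 (−0.10), RGS9 (−0.041) and RASD2 (−0.13), and with cohort as a covariate for ARPP19 (−0.015) and ADCY5 (−0.043). With each animal left out it ran from −0.0076 to 0.66 for ARPP21, −0.087 to 0.36 for ARPP19, −0.035 to 0.34 for ADCY5 and −0.098 to 0.38 for GNG7, lowest without Control replicate 6. LD* against controls without Control replicate 6, a setting chosen after seeing the data, gave −0.00013 for PPP1R1B, −0.15 for ARPP19, −0.032 for ADCY5, −0.17 for GNG7, −0.089 for RGS9 and −0.10 for RASD2. HD* against LD* changed sign with cohort as a covariate for PPP1R1B (−0.41), ARPP19 (−0.41), GNG7 (−0.34), PTPN5 (−0.36), RGS9 (−0.44) and RASD2 (−0.51), in cohort 7a alone for PPP1R1B (−0.050) and RGS9 (−0.25), and with TMM rescaling for ARPP21 (0.075) and ADCY5 (0.087). VHD against HD ran from −0.025 to 0.47 for GNG7 with each animal left out. Slopes on intake changed sign with cohort as a covariate for PPP1R1B (−0.19), ARPP19 (−0.073) and RGS9 (−0.35), with drinking group as a covariate for PPP1R1B (−0.17), ARPP19 (−0.059) and RGS9 (−0.22), and with TMM for ARPP21 (0.040), ADCY5 (0.010), PTPN5 (0.052) and RASD2 (0.054). The cause was not tested. No paired analysis was possible because replicate numbers only name the animals within a group. The depth of each animal is unknown, cohort and drinking group are partly confounded, VHD against HD rests on 8 animals, TPM shares a total between genes, and bulk tissue does not separate cell types.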
